A study of Xenopus laevis with 9 samples.

Results

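The mRNAs of cell cycle and chromosome genes were followed in cytoplasmic extract of *Xenopus laevis* eggs, before and after the extract was pressed through a porous membrane. An mRNA was a member when its symbol in the study's gene sheet began with the letters of one of these families: cyclin-dependent kinases and other cdc genes, cyclins, the anaphase-promoting complex, centromere proteins, kinesins, Mcm, Orc and Smc proteins, nucleoporins, and the Bub, Aurora, Polo and Nek kinases. The rule found 35 mRNAs among the 44478 genes of the count table. The symbols came from the 1999 of 19752 sheet entries used here, so the 35 members are only a part of these families. No Orc, Bub or Aurora mRNA is among them. Chromosomes 3L, 2S and 1L carry 18, 10 and 7 of the members. The letters .L and .S mark the 2 copies of a gene on the long and short chromosomes of this tetraploid frog. T1 was the filtrate collected early at low pressure, T2 the filtrate collected late at high pressure, and the input was extract taken before filtration, with 3 libraries of each. All 9 libraries came from eggs of wildtype females arrested in metaphase of meiosis, and in the study's methods every extract carried cytochalasin D, nocodazole, protease inhibitors and sucrose. The comparison of a filtrate with the input asks how freely an RNA passes the pores. That of T2 with T1 asks whether it passes more late and at high pressure, and time and pressure cannot be told apart.

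An egg makes no new mRNA and divides on stored maternal mRNAs and proteins. Cyclins bind and switch on cyclin-dependent kinases, B-type cyclins with Cdk1 drive entry into M phase, and the anaphase-promoting complex marks cyclins for destruction at exit from M phase. The kinetochore joins centromeres to microtubules, kinesins move along microtubules, and nucleoporins form the channels of the nuclear envelope, which is taken apart at metaphase. The letters of a symbol are not a function: ccnt1 and cdk8 act in transcription, kif3a and kif7 in cilia, and cdc42se2 codes for a small effector of the GTPase CDC42.

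The reads on genes numbered 23509338 to 37265313 in the T1 libraries, 60330615 to 93451602 in the T2 libraries, and 65503682 to 90000652 in the input libraries. Members took 0.345 to 0.521% of these reads at T1, 0.395 to 0.509% at T2 and 0.497 to 0.548% in the input. Levels are given as CPM, the reads of a gene scaled to a common library total, after edgeR's TMM scaling, and within a gene they compare libraries. They are shares of the sequenced RNA, so less of one mRNA and more of the other RNAs cannot be told apart. The T1 libraries differed most among themselves, with a biological coefficient of variation over all tested genes of 1.52 at T1, 1.08 at T2 and 0.579 in the input. Unmapped reads were 12.4, 15.5 and 20.2% in T1 replicates 1, 2 and 3, 7.04 to 9.24% at T2 and 7.23 to 7.71% in the input. Reads mapped to several places were 4.06 to 6.76% at T1, 1.98 to 2.85% at T2 and 1.69 to 1.85% in the input. T1 replicate 3 also had the fewest reads on genes. Egg markers were present in every condition, with summed levels of 1709.5 to 1905 CPM at T1, 1491 to 1743 at T2 and 1390.4 to 1498 in the input over 10 genes. Of 6 blood cell markers, ikzf4.S had 55.8 to 124 CPM at T1, 128 to 185 at T2 and 376 to 440 in the input, and the others stayed at or below 7.07 CPM in each library. The 3 connective tissue markers summed to at most 14.3 CPM at T1, 5.34 at T2 and 3.43 in the input.

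**Figure D1:**
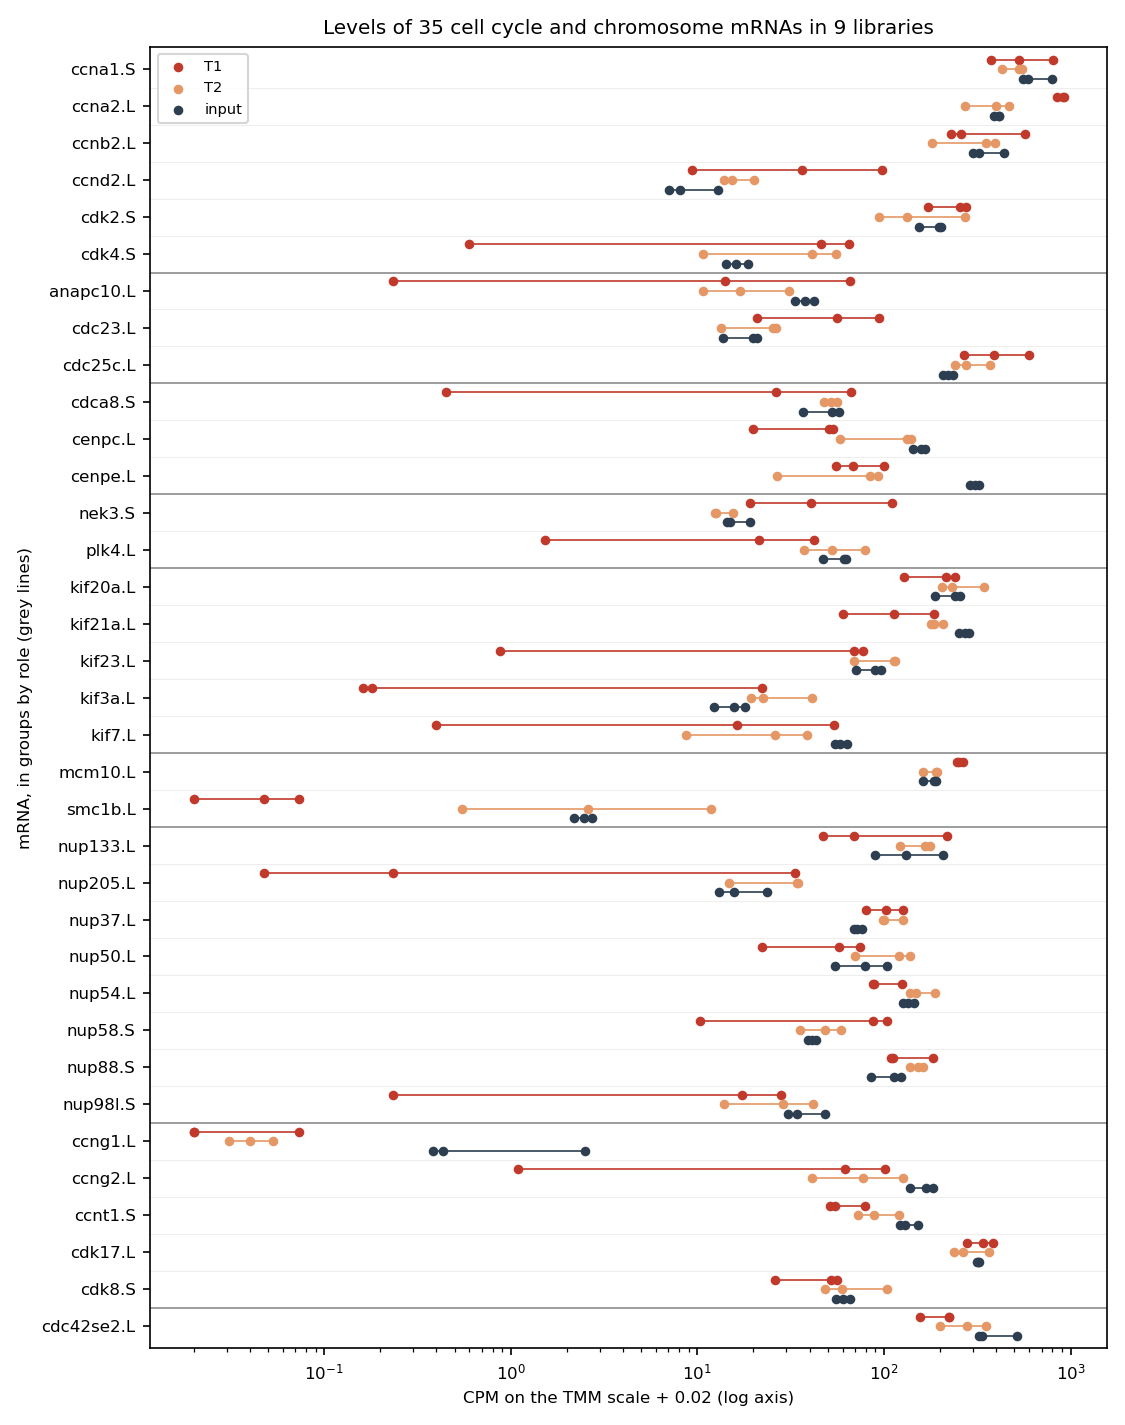
Level of each of the 35 mRNAs in the 9 libraries, as CPM on the TMM scale plus 0.02 on a log axis, with 1 point per library and a line over the range of each condition (T1 red, T2 orange, input dark blue). Input points lie close together for nearly all mRNAs, and cdk4.S, anapc10.L, cdca8.S, kif23.L, kif3a.L, kif7.L, nup205.L and nup98l.S have T1 points below 1 CPM while their input points are above 10 CPM.

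At T1, 1 member rose against the input and 3 fell. The member that rose was ccna2.L, the mRNA of cyclin A2, which acts in S phase and early mitosis. Those that fell were cenpe.L and cenpc.L, which code for the kinetochore motor CENP-E and the inner kinetochore protein CENP-C, and ccnt1.S, which codes for cyclin T1 of the transcription elongation factor P-TEFb. All 35 members passed the filter on low counts. The 4 members called by edgeR's quasi-likelihood test at an adjusted p under 0.05 compare with 11.5% of the 20148 genes tested (6.44% higher and 5.08% lower), and 13 members had an unadjusted p under 0.05, against 32.4%. The median fitted log2 fold change of the members was -0.44 (SD of the medians of replicates 1 to 3 0.34), against -0.09 over all genes tested. As ratios of T1 replicates 1, 2 and 3 to the mean input, the medians were -0.21, -0.20 and -0.79 over the members. Over all genes tested they were -0.28, -0.39 and -0.81, so the members were no lower in any replicate. Without T1 replicate 1, 2 or 3 the fitted median was -0.36, -0.53 and -0.072 over the members. Over all genes tested it was -0.55, -0.53 and -0.23. With the replicate number as a block the fitted median was -0.54 over the members and -0.72 over all genes tested.

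Cyclin A2 mRNA (ccna2.L, chromosome 1L from 70574471 to 70581877) had 850.5, 917 and 909.9 CPM in T1 replicates 1, 2 and 3, 398, 466 and 273 CPM at T2, and 388, 413 and 412 CPM in the input. The T1 libraries lay above all others and within a few percent of each other, while the T2 and input libraries overlapped. The mean was 893 ± 36.6 CPM at T1 and 404 ± 14.1 CPM in the input (SD, n = 3 each; log2 fold change 1.14, SE 0.23, adjusted p = 0.012). At T2 the log2 fold change against the input was -0.09 (SE 0.22, adjusted p = 1.00).

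CENP-E mRNA (cenpe.L, chromosome 1L from 77811775 to 77871191) had 55.0, 68.1 and 100.2 CPM at T1, 84.0, 93.0 and 26.9 CPM at T2, and 289, 321 and 307 CPM in the input. All 6 filtrate libraries lay below the 3 input libraries. The mean was 74.4 ± 23.2 CPM at T1 and 306 ± 16.0 CPM in the input, 4.11-fold lower at T1 (log2 fold change -2.04, SE 0.44, adjusted p = 0.0174). CENP-C mRNA (cenpc.L, chromosome 1L from 90102713 to 90150486) had 53.6, 19.7 and 50.8 CPM at T1, 132, 139.6 and 58.1 CPM at T2, and 166, 158 and 143 CPM in the input. The T1 libraries lay below the T2 libraries, and these below the input. The mean was 41.4 ± 18.8 CPM at T1 and 155 ± 11.6 CPM in the input, 3.75-fold lower at T1 (log2 fold change -1.91, SE 0.45, adjusted p = 0.0252). Cyclin T1 mRNA (ccnt1.S, chromosome 2S from 127216884 to 127232041) had 78.9, 54.6 and 51.1 CPM at T1, 121, 88.2 and 72.9 CPM at T2, and 153, 122 and 129 CPM in the input. Both filtrates lay below the input in every library, and T1 and T2 overlapped. The mean was 61.5 ± 15.1 CPM at T1 and 135 ± 15.9 CPM in the input (log2 fold change -1.13, SE 0.33, adjusted p = 0.0483).

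These 4 calls rested on all 3 input libraries. Without input replicate 1, 2 or 3 the adjusted p was 0.0799, 0.0737 and 0.0641 for ccna2.L, 0.0675, 0.0778 and 0.0659 for cenpe.L, 0.103, 0.0999 and 0.0813 for cenpc.L, and 0.167, 0.134 and 0.132 for ccnt1.S. The call of ccnt1.S was also lost with median-of-ratios size factors, with a filter of 1 count, with the replicate number as a block (adjusted p = 0.0567), without replicate 2 of T1 (0.0819), without replicate 3 of T1 (0.0551), and without T2 replicate 1, 2 or 3 (0.0706, 0.0763 and 0.0528). The number of members called was 12 with the Wald test of DESeq2 (7 of them higher, 5 lower, against 27.9% of all genes tested), 9 without T1 replicate 1 (5 higher and 4 lower, against 18.8%), and 0 without input replicate 1, 2 or 3 (against 2%, 1.99% and 2.81%). Beside the 4 mRNAs above, DESeq2 called ccnd2.L, cdc23.L, cdc25c.L, nek3.S, mcm10.L and nup37.L higher and smc1b.L and ccng1.L lower, and the fit without T1 replicate 1 called ccnd2.L, cdc23.L, cdc25c.L and nek3.S higher and kif3a.L lower. T1 replicate 1 was the lowest T1 library of ccnd2.L, cdc23.L, cdc25c.L and nek3.S and the highest of kif3a.L, so leaving it out favours these calls. In each of the 17 alternatives run, ccna2.L had a positive log2 fold change and cenpe.L, cenpc.L and ccnt1.S a negative one.

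**Figure D2:**
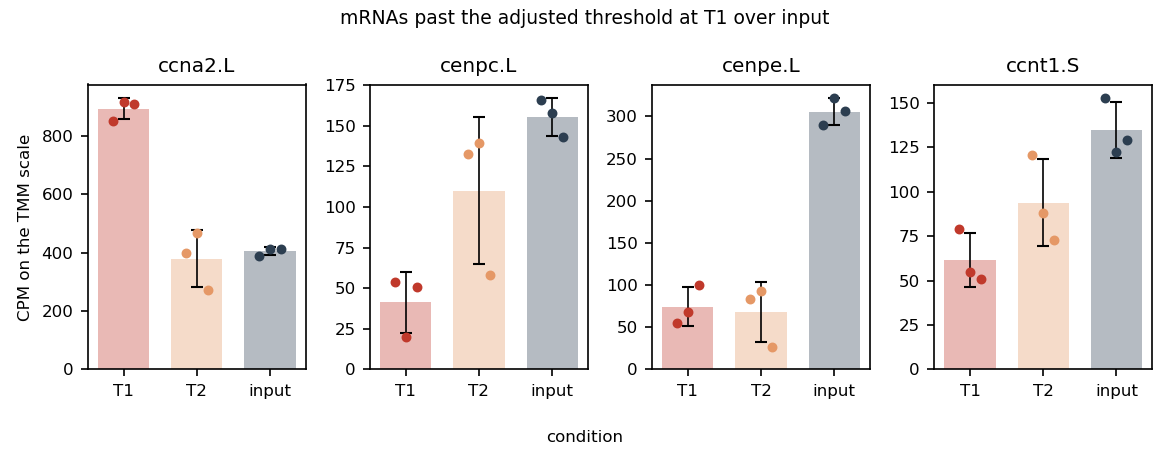
CPM on the TMM scale of ccna2.L, cenpc.L, cenpe.L and ccnt1.S at T1, at T2 and in the input, with 1 point per library, bars for the mean and whiskers for the SD (n = 3). The T1 points of ccna2.L lie above all its other points, and the T1 points of cenpc.L, cenpe.L and ccnt1.S lie below all their input points.

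Of the other cyclins and kinases of the cell cycle, most were present at T1 at levels that overlapped the input. Cyclin A1 mRNA (ccna1.S), coding for an A-type cyclin of frog eggs and early embryos, had 528, 801 and 374 CPM at T1, 532, 551 and 429 CPM at T2, and 592, 793 and 554 CPM in the input (log2 fold change -0.19, SE 0.29, adjusted p = 0.712 at T1). Cyclin B2 mRNA (ccnb2.L), coding for a partner of Cdk1 in M phase, had 260.2, 569.9 and 229 CPM at T1, 394, 355 and 182 CPM at T2, and 438, 301 and 323 CPM in the input. Its 3 conditions overlapped, and its log2 fold change at T1 was -0.0024 (SE 0.39, adjusted p = 0.998), with a sign that differed between alternatives. A further mRNA given as CCNB2 in the study's sheet, LOC398162, is outside the rule. It lay above the input in each T1 library, with no call by edgeR (log2 fold change 0.97, SE 0.33, adjusted p = 0.0727). The kinase mRNA cdk2.S had 257, 275 and 172 CPM at T1, 134, 272 and 93.9 CPM at T2, and 155, 197 and 202 CPM in the input (log2 fold change 0.35, SE 0.38, adjusted p = 0.585 at T1).

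The G1 pair of cyclin D2 and Cdk4 had its larger T1 levels in replicates 2 and 3. Cyclin D2 mRNA (ccnd2.L) had 9.32, 36.6 and 97.7 CPM at T1, 15.3, 20.1 and 13.9 CPM at T2, and 7.03, 8.06 and 12.9 CPM in the input. Its T1 replicate 1 lay within the input range, and the fit gave the largest positive value among the members, with no call by edgeR (log2 fold change 2.36, SE 0.88, adjusted p = 0.0954). It was called by DESeq2 (adjusted p = 0.00826) and without T1 replicate 1 (adjusted p = 0.0196), and without T1 replicate 3 the fitted value was 1.30. The kinase mRNA cdk4.S, coding for the partner of D-type cyclins, had 0.579, 64.8 and 46.2 CPM at T1, 55.4, 40.9 and 10.7 CPM at T2, and 14.3, 18.7 and 16.1 CPM in the input. Replicate 1 of T1 was low and replicates 2 and 3 were above all input libraries, so the fitted value had a wide error (log2 fold change 1.18, SE 1.16, adjusted p = 0.541).

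Of the 3 regulators of entry into and exit from M phase, cdc25c.L and cdc23.L lay above the input in each T1 library. The mRNA of the phosphatase that activates Cdk1 (cdc25c.L, chromosome 3L from 55285439 to 55304281) had 269, 602 and 388 CPM at T1, 241, 275 and 369 CPM at T2, and 207, 220.4 and 235 CPM in the input. Each filtrate library lay above each input library, and the T1 value did not pass the test (log2 fold change 0.93, SE 0.30, adjusted p = 0.0673). The mRNA of the anaphase-promoting complex subunit Cdc23 (cdc23.L) had 21.0, 56.0 and 94.0 CPM at T1, 26.4, 25.4 and 13.3 CPM at T2, and 13.7, 19.97 and 20.9 CPM in the input. The T1 libraries lay just above to well above the input (log2 fold change 1.65, SE 0.67, adjusted p = 0.121), and without T1 replicate 3 the fitted value was 1.08. Both mRNAs were called by DESeq2 (adjusted p = 0.0155 for cdc25c.L and 0.022 for cdc23.L) and without T1 replicate 1 (0.0159 and 0.0358). The mRNA of another subunit, anapc10.L, had 65.8, 14.1 and 0.214 CPM at T1, 10.7, 16.8 and 31.1 CPM at T2, and 42.4, 33.2 and 37.5 CPM in the input. The genes of kif20a.L and cdc23.L are neighbours on chromosome 3L, 1518 bases apart, and kif20a.L overlapped the input at T1 (log2 fold change -0.23, SE 0.30).

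Among the members named as Polo and Nek kinases, nek3.S, of the NIMA-related family, had 19.2, 40.6 and 110.4 CPM at T1, 12.6, 12.5 and 15.5 CPM at T2, and 19.1, 14.4 and 15.02 CPM in the input. Its T1 libraries ranged from the top of the input upward, with no call by edgeR (log2 fold change 1.81, SE 0.72, adjusted p = 0.115). It was called by DESeq2 (adjusted p = 0.0167) and without T1 replicate 1 (adjusted p = 0.033), and without T1 replicate 3 the fitted value was 0.89. The mRNA of the kinase of centriole duplication, plk4.L, had 41.9, 21.5 and 1.501 CPM at T1, 52.7, 79.1 and 37.3 CPM at T2, and 47.1, 62.6 and 60.7 CPM in the input. All T1 libraries were below the input, and replicate 3 was far below the others (log2 fold change -1.39, SE 0.87, adjusted p = 0.298).

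All 5 kinesin mRNAs had negative fitted values at T1, from -1.32 for kif7.L to -0.23 for kif20a.L, and 0 were called by edgeR or by DESeq2. Of the 20148 genes tested, 10467 had negative fitted values at T1. By unadjusted p under 0.05, 1 kinesin was below the input, kif21a.L, coding for a kinesin that restrains microtubule growth. It had 113, 60.4 and 185 CPM at T1, 207, 186 and 178 CPM at T2, and 271, 284 and 254 CPM in the input, and both filtrates lay below the input in every library (log2 fold change -1.17, SE 0.35, adjusted p = 0.055). It was called without T1 replicate 3 (adjusted p = 0.00737), with scaling by library size alone (0.0239) and with genes of at least 1 CPM (0.0491). The fit without T1 replicate 3 leaves out the T1 library of kif21a.L nearest to the input, and it called 13.2% of all genes tested. The kinesins of cytokinesis, kif20a.L and kif23.L, overlapped the input at T1 and at T2. The ciliary kif7.L, a regulator of Hedgehog signalling, had 53.9, 16.3 and 0.375 CPM at T1, 38.7, 25.9 and 8.67 CPM at T2, and 63.7, 54.3 and 57.9 CPM in the input (log2 fold change -1.32, SE 1.15, adjusted p = 0.483). The ciliary transport motor kif3a.L had 22.2, 0.142 and 0.161 CPM at T1, 19.5, 22.4 and 40.9 CPM at T2, and 15.7, 12.3 and 17.9 CPM in the input. Replicate 1 of T1 was above the input and replicates 2 and 3 were near 0 (log2 fold change -1.03, SE 1.54, adjusted p = 0.704), and without replicate 1 it was called (log2 fold change -6.65, adjusted p = 0.00508). That fit leaves out the only T1 library where kif3a.L was high, and it called 18.8% of all genes tested.

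The 2 members of DNA replication and cohesion differed in their values. The replication initiation factor mcm10.L had 245, 265 and 252 CPM at T1, 192, 190.0 and 161 CPM at T2, and 162, 189.9 and 186 CPM in the input. Its T1 libraries were close together and above all others, with no call by edgeR (log2 fold change 0.50, SE 0.21, adjusted p = 0.13) and a call by DESeq2 (adjusted p = 0.0224). The meiotic cohesin subunit smc1b.L had 0.0276, 0 and 0.0536 CPM at T1, 2.57, 0.530 and 11.8 CPM at T2, and 2.16, 2.699 and 2.45 CPM in the input. At T1 this was 2 reads in all, against 577 reads in the input. From the summed reads the input was 110.0-fold higher (95% exact binomial interval 30.3 to 911, for counting error only). That ratio was 67.1 without T1 replicate 2, which held 0 reads, and 174 without T1 replicate 3. It passed the filter on low counts through the input and T2 libraries and through no T1 library. The fit made no call (adjusted p = 0.0722), while DESeq2 (0.000821) and edgeR on the T1 and input libraries alone (0.025) did. In the fit on T1 and input alone it passed the filter through the input only, where it is high.

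The 8 nucleoporin mRNAs had fitted values on both sides of 0 at T1, 3 positive and 5 negative, with a median of -0.40, and edgeR called 0 of them, with 0 at an unadjusted p under 0.05. DESeq2 called 1, nup37.L (log2 fold change 0.58, adjusted p = 0.0446). The largest positive value was that of nup58.S, of the central channel, with 10.3, 87.6 and 104 CPM at T1, 59.1, 48.2 and 35.7 CPM at T2, and 39.3, 43.1 and 41.2 CPM in the input (log2 fold change 0.71, SE 0.68, adjusted p = 0.531). Its T1 replicate 1 lay below the input and replicates 2 and 3 above it. The steadiest between T1 libraries were nup37.L of the outer ring, at 127, 102 and 80.3 CPM at T1 and 71.6, 68.8 and 76.2 CPM in the input, and nup54.L of the central channel, at 88.8, 126 and 87.1 CPM at T1 and 127, 145 and 134 CPM in the input. The libraries did not overlap for either, nup37.L being above the input and nup54.L below it (log2 fold change 0.51, SE 0.30, and -0.43, SE 0.27). At T2, 7 of the 8 fitted values against the input were positive, from 0.12 for nup133.L to 0.67 for nup205.L, and that of nup98l.S was -0.43. Of the 20148 genes tested, 11512 were positive at T2, and 0 of the 8 nucleoporins had an unadjusted p under 0.05 there by edgeR.

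Of the remaining members, which act outside the core cell cycle machinery or at several places, the cyclin G1 mRNA ccng1.L, known as a target of p53 in mammals, was near 0 in both filtrates. It had 0, 0 and 0.0536 CPM at T1, 0.0199, 0.0108 and 0.0333 CPM at T2, and 0.412, 0.364 and 2.47 CPM in the input. These were 1 read at T1, 5 reads at T2 and 287 reads in the input, 232 of them in input replicate 3. From the summed reads the input was 109-fold higher than T1 (95% exact binomial interval 19.5 to 4337) and 61.5-fold higher than T2 (26.1 to 191), and without input replicate 3 these ratios were 34.8 and 19.6. Without T1 replicate 1 or 2 the ratio to T1 was 65.4 and 66.8, and without T1 replicate 3 no T1 read was left. It passed the filter on low counts through the input alone, and the fit made no call (adjusted p = 0.0876 at T1 and 0.435 at T2), while at T1 DESeq2 (0.0418) and edgeR on the T1 and input libraries alone (0.0391) did. Its relative ccng2.L had 102, 62.0 and 1.07 CPM at T1, 127, 77.6 and 40.9 CPM at T2, and 169, 183 and 138 CPM in the input, below the input in all 6 filtrate libraries (log2 fold change -1.57, SE 1.00, adjusted p = 0.31 at T1). The kinase mRNA cdk17.L was the steadiest member in the input, with a coefficient of variation of 1.29%. It had 342, 279 and 386 CPM at T1, 266, 237 and 364 CPM at T2, and 324, 319 and 316 CPM in the input (log2 fold change 0.07, SE 0.23, adjusted p = 0.882 at T1). The mRNA of the Mediator kinase, cdk8.S, overlapped the input in both filtrates. The CDC42 effector mRNA cdc42se2.L had 224, 156 and 224 CPM at T1, 350.3, 200.02 and 280.1 CPM at T2, and 518, 324 and 336 CPM in the input, with T1 below the input in every library (log2 fold change -0.96, SE 0.29, adjusted p = 0.0568). It was called with the replicate number as a block (adjusted p = 0.0322) and with scaling by library size alone (adjusted p = 0.0337).

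**Figure D3:**
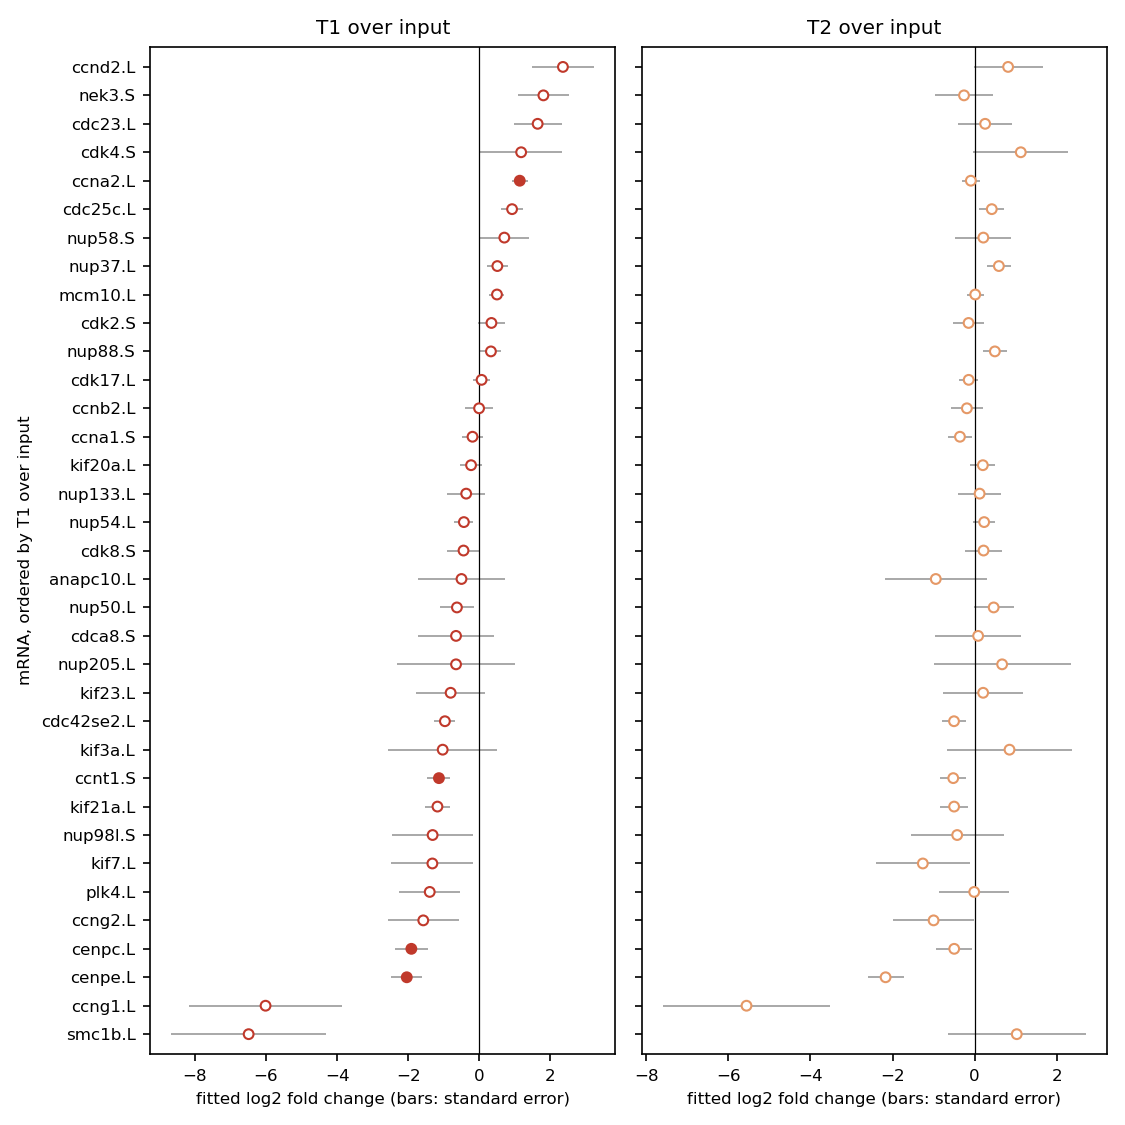
Fitted log2 fold change of each member at T1 over the input (left) and at T2 over the input (right), in the order of the T1 values, with standard errors as bars and filled points for an adjusted p under 0.05. The 4 filled points at T1 are ccna2.L at 1.14, ccnt1.S at -1.13, cenpc.L at -1.91 and cenpe.L at -2.04, and 0 points are filled at T2.

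Without regard to a test, the T1 libraries lay entirely above the input for 6 members and entirely below it for 12, against 15.7% and 27.8% of all genes tested. The 6 were ccna2.L, cdc23.L, cdc25c.L, nek3.S, mcm10.L and nup37.L. Across the 35 members, the span of the gene on the chromosome and the fitted T1 value had a Spearman rho of -0.22, and the mean input CPM and the T1 value one of 0.06. These are descriptions over genes that share the same 9 libraries, and a span counts introns, so it is not the length of the mRNA.

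Several members were at or near their input level in some T1 libraries and close to absent in others. In 12 of the 35 members, at least 1 T1 library was below 1/8 of the mean input, against 58.0% of all genes tested. The median input level was 85.9 CPM over the members and 15.8 CPM over all genes tested, without regard to mRNA length. Of the 12, 8 were that low in 1 T1 library, kif3a.L and nup205.L in 2, and smc1b.L and ccng1.L in all 3. By library, 4 members were that low in T1 replicate 1, 3 in replicate 2 and 11 in replicate 3, against 27.4%, 33.1% and 49.0% of all genes tested. At T2 the numbers were 1, 1 and 2, against 11.1%, 12.0% and 18.1%, and the members were ccng1.L in all 3 replicates and cenpe.L in replicate 3. The median level of the 12 members in the input was 37.7 CPM and that of the other 23 was 155 CPM.

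Reads in a low library are set beside the number that the mean input level would give at the depth of that library. The Aurora kinase partner Borealin (cdca8.S) had 66.7, 26.5 and 0.429 CPM at T1, 52.2, 47.9 and 55.7 CPM at T2, and 57.4, 52.6 and 37.0 CPM in the input. At its mean input level, T1 replicate 3 would have held 914 reads of cdca8.S, and it held 8. The cytokinesis kinesin kif23.L had 77.7, 69.0 and 0.858 CPM at T1, 115, 113 and 69.4 CPM at T2, and 71.1, 96.5 and 90.1 CPM in the input, with 16 reads in T1 replicate 3 in place of 1602. The same replicate held 20 reads of ccng2.L in place of 3049, 28 of plk4.L in place of 1059, 7 of kif7.L in place of 1094, and 4 each of anapc10.L and nup98l.S in place of 704 and 703. Other mRNAs were low in other replicates. The inner ring nucleoporin nup205.L had 0.0276, 33.2 and 0.214 CPM at T1, 34.2, 34.4 and 14.8 CPM at T2, and 13.01, 15.8 and 23.7 CPM in the input, with 1 read in T1 replicate 1 in place of 635 and 4 in replicate 3 in place of 326, and without T1 replicate 2 it was called (log2 fold change -7.23, adjusted p = 0.0128). That fit leaves out the only T1 library where nup205.L was high, and it called 12.4% of all genes tested. The kinase mRNA cdk4.S had 21 reads in T1 replicate 1 in place of 594. In T1 replicates 2 and 3, kif3a.L had 5 and 3 reads in place of 538 and 286. These members were chosen after their levels were seen, apart from those named by rule. The low depth and the high share of unmapped reads of T1 replicate 3 moved with 11 of the low values, and their part in them was not tested.

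**Figure D4:**
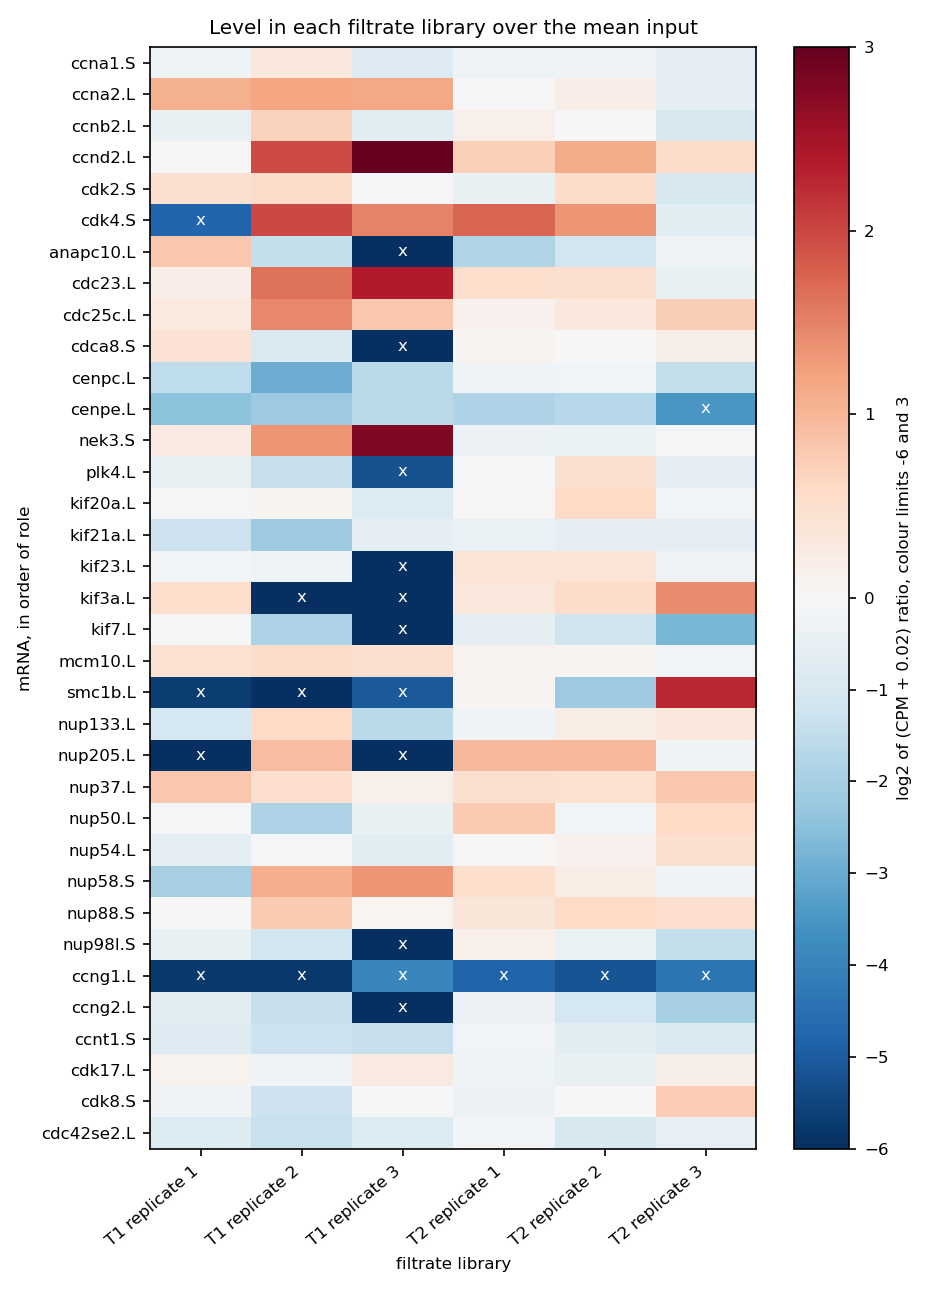
Level of each member in each of the 6 filtrate libraries over its mean input, as the log2 ratio of CPM plus 0.02 (red higher, blue lower, colours limited to -6 and 3), with a white x where the level is below 1/8 of the mean input. T1 replicate 3 has 11 such marks, T1 replicates 1 and 2 have 4 and 3, and the T2 replicates have 1, 1 and 2.

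The members also varied more between libraries at T1 than in the input. The median coefficient of variation over the 35 members was 53.3% at T1, 28.5% at T2 and 14.1% in the input, and over all genes tested it was 87.8%, 44.2% and 23.0%. It was larger at T1 than in the input for 33 of 35 members and larger at T2 than in the input for 27. The smallest at T1 were those of mcm10.L (3.90%) and ccna2.L (4.10%).

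At T2, 0 members differed from the input by edgeR's test, against 0% of all genes tested, and 2 members had an unadjusted p under 0.05 (7.79% of all genes). These were cenpe.L (log2 fold change -2.17, SE 0.44, adjusted p = 0.278) and ccng1.L. The main fit shares its estimate of the spread with the T1 libraries. With only the T2 and input libraries in the fit, edgeR called 0.965% of all genes tested. Without T1 replicate 3 it called 0.157%, and no member was called in either. DESeq2's Wald test called 1 member, cenpe.L, against 1.24% of all genes (log2 fold change -2.22, adjusted p = 0.00264). The median log2 fold change of the members was 0.01 (SD of the medians of replicates 1 to 3 0.17), against 0.14 over all genes tested. The largest positive values were those of cdk4.S (1.12, SE 1.16), smc1b.L (1.02, SE 1.68) and kif3a.L (0.85, SE 1.53). That of smc1b.L rested on T2 replicate 3, and without it was -0.65. The largest negative value after those of ccng1.L and cenpe.L was that of kif7.L (-1.26, SE 1.15). The T2 libraries lay entirely above the input for 5 members and entirely below it for 9, against 14.1% and 12.8% of all genes tested. The 9 below were cenpc.L, cenpe.L, ccna1.S, kif21a.L, kif7.L, anapc10.L, ccng1.L, ccng2.L and ccnt1.S, and the 5 above were ccnd2.L, cdc25c.L, kif3a.L, nup37.L and nup88.S.

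Between the filtrates, 0 members differed at T2 from T1 by edgeR's test, against 0.0993% of all genes tested, and 7 had an unadjusted p under 0.05 (22.7% of all genes). DESeq2's test called 4, smc1b.L higher and ccna2.L, nek3.S and mcm10.L lower, against 17.5%. With edgeR, 3 members were called without T1 replicate 1 (ccna2.L, nek3.S and kif3a.L, against 9.43%), 2 without T1 replicate 2 (ccna2.L and nup205.L, against 2.46%) and 1 with a filter of 1 count (ccna2.L, against 0.313%). The T2 libraries lay entirely above the T1 libraries for cenpc.L, nup54.L and smc1b.L and entirely below them for ccna2.L, nek3.S and mcm10.L, against 13.2% and 7.73% of all genes tested. The median fitted log2 fold change of the members at T2 over T1 was 0.43, against 0.09 over all genes tested. Without T1 replicate 3 these were 0.13 and 0.12. With the replicate number as a block the median over all genes tested was 0.45. As ratios of T2 replicates 1, 2 and 3 to the mean of T1, the medians of the members were 0.17, 0.26 and 0.12 (SD 0.07). Those over all genes tested were 0, 0 and -0.01. This SD leaves out the spread between the T1 libraries. The 3 largest positive values were those of smc1b.L (7.51, SE 2.27, adjusted p = 0.117), kif3a.L (1.88, SE 1.57) and cenpc.L (1.41, SE 0.45, adjusted p = 0.13). In summed reads, smc1b.L was 180.4-fold higher at T2 than at T1 (95% exact binomial interval 49.8 to 1491), with 1014 reads at T2, 707 of them in T2 replicate 3, and 2 at T1. The ratio was 71.6 without T2 replicate 3 and 110.0 without T1 replicate 2. The 3 largest negative values were those of nek3.S (-2.07, SE 0.73, adjusted p = 0.154), ccnd2.L (-1.54, SE 0.86) and cdc23.L (-1.39, SE 0.67). Cyclin A2 mRNA came closest to the threshold, with a log2 fold change of -1.24 (SE 0.23, adjusted p = 0.0633), and it was called with a filter of 1 count (0.039), without T1 replicate 1 (adjusted p = 0.0185) and without T1 replicate 2 (0.0437). CENP-E mRNA overlapped between the filtrates, with a log2 fold change of -0.13 (SE 0.42) at T2 over T1, and its sign turned with scaling by library size alone, without T1 replicate 3 and without T2 replicate 3. The T1 libraries stand in this comparison and in that of T1 with the input, so the values of both are not independent.

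By role, medians of the fitted values are given over few members each. The SD beside each is that of the medians of replicates 1 to 3, as ratios to the mean input and not as fitted values. Over all genes tested the median fitted value was -0.09 at T1 and 0.14 at T2. At T1 6.44% of all genes tested were called higher and 5.08% lower. The 6 cyclins and kinases of the cell cycle had a median log2 fold change of 0.74 (SD 0.55) at T1 and -0.12 (SD 0.49) at T2 against the input, with 1 called at T1. The 3 centromere and passenger members had medians of -1.91 (SD 0.34) at T1 and -0.50 (SD 0.70) at T2, with 2 called at T1, and the 5 kinesins -1.03 (SD 1.85) and 0.20 (SD 0.35). The 3 members of mitotic entry and exit had 0.93 (SD 0.58) and 0.25 (SD 0.30), and the 8 nucleoporins -0.40 (SD 0.62) and 0.35 (SD 0.11). The 5 other cyclins and cyclin-dependent kinases had -1.13 (SD 0.26) and -0.52 (SD 0.28), with 1 called at T1. At T1 the replicate medians lay on both sides of 0 for the cyclins and kinases of the cell cycle (-0.15, 0.93 and 0.53) and for the nucleoporins (-0.51, 0.55 and -0.54).

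Related genes outside the rule were taken from 3 lists, whose counts stand against 6.44% of all genes tested that rose at T1 and 5.08% that fell. Of 31 mRNAs of mitosis and the spindle, 0 rose and 5 fell at T1, with a median log2 fold change of -0.57. The 5 were espl1.S (separase), hmmr.L and cep152.L (spindle and centriole proteins), racgap1.S (cytokinesis) and pds5b.S (cohesin), at log2 fold changes of -1.61, -1.18, -1.20, -1.06 and -0.97, and they were chosen after their values were seen. Of 21 mRNAs of replication and its checkpoint, 3 rose and 2 fell, with a median of -0.11. The replication clamp mRNA pcna.L had 738, 1139 and 1899.8 CPM at T1 and 253, 259.9 and 235 CPM in the input, higher in every T1 library (log2 fold change 2.34, SE 0.34, adjusted p = 0.00414). The others, chosen after their values were seen, were gins4.L of the replicative helicase (2.22) and the PCNA-binding pclaf.L (2.04), which rose, and the checkpoint mediator clspn.S (-1.19) and the initiation factor ticrr.L (-1.45), which fell. Of 13 mRNAs of the nuclear envelope and nuclear transport, 2 rose and 1 fell, with a median of 0.33. The mRNA export cofactor nxt2.L (log2 fold change 1.49, SE 0.35, adjusted p = 0.0229) and the import receptor tnpo3.L (log2 fold change 1.17, SE 0.26, adjusted p = 0.0184) rose, and the nucleoporin mRNA ranbp2.S had 223, 112 and 213 CPM at T1 and 387, 407 and 386 CPM in the input (log2 fold change -1.11, SE 0.27, adjusted p = 0.0288). At T1, DESeq2's test called 6 (0 higher, 6 lower), 7 (4 higher, 3 lower) and 4 (3 higher, 1 lower) in the order of the lists, against 27.9% of all genes tested. Without 1 input library, edgeR called only 1.99 to 2.81% of all genes at T1. At T2, 0 genes of the 3 lists differed from the input or from T1 by edgeR's test. By unadjusted p under 0.05, 4, 3 and 3 of them differed at T2 from the input in the order of the lists above, and DESeq2's test called 3, 1 and 1, against 7.79% and 1.24% of all genes tested.

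**Figure D5:**
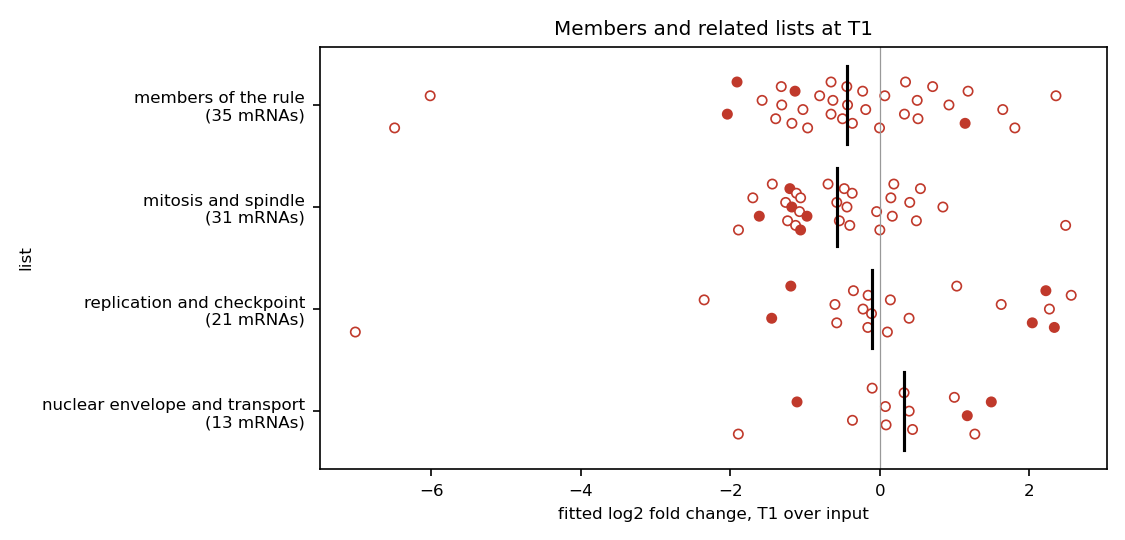
Fitted log2 fold change at T1 over the input for the members and for the 3 lists of related mRNAs, with 1 point per mRNA, filled where the adjusted p is under 0.05, and a black line at the median of each list. The medians are -0.44, -0.57, -0.11 and 0.33 from top to bottom, and called points lie on both sides of 0 in each list apart from mitosis and spindle.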

How the data were processed

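RNA of egg extract was depleted of ribosomal RNA and sequenced from stranded libraries, with 3 biological replicates of the T1 filtrate, the T2 filtrate and the input. The authors trimmed reads with Trim Galore, aligned them to the *X. laevis* v10.1 genome with STAR, and deposited the raw counts of reads per gene that STAR gave, without normalization. STAR's gene counts hold uniquely mapped reads, so reads shared by near-identical L and S copies are left out, and which strand column was used is not given in the sources used here. The authors also deposited a signal table of counts divided by DESeq2 size factors. Its values gave back whole reads for 100% of entries (within 0.01), and 2 of the 35 members differed from the raw counts. These reads served as an alternative, with 20414 genes tested and 2358 called at T1 over the input. Rows of reads on no gene were left out. They held 19.2 to 24.8% of reads without a feature at T1, 24.5 to 31.7% at T2 and 32.6 to 36.6% in the input.

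Symbols came from the study's gene sheet, whose fold changes were not used, and were joined by gene identifier. All 35 members matched a RefSeq symbol, and their coordinates are those of RefSeq's v10.1 annotation. The main test was edgeR's quasi-likelihood test (version 4.0.16, R 4.3.3) on all 9 libraries with condition as the only term, TMM scaling, and edgeR's filter on low counts (minimum count 10, minimum total 15), with Benjamini-Hochberg adjustment across all 20148 genes tested. An mRNA was called at an adjusted p under 0.05. Standard errors (SE) are approximate, taken as the size of the log2 fold change over the root of the F statistic. CPM values are on the TMM scale, and SDs of replicate medians used CPM plus 1. These SDs set each library of the first condition against the mean of the other, whose spread they leave out. Intervals of read ratios are exact (Clopper-Pearson) at 95% and cover counting error only. Alternatives were DESeq2 (version 1.42.0), other scalings and filters, only the compared conditions, a replicate block, recovered reads, members by human symbol, and each library left out. Levels per library were printed for members called in a comparison, the 5 largest fitted values each way at T1 over the input, the 3 largest each way in the other comparisons, the 5 with the highest input CPM and 6 M-phase regulators, and other levels were chosen after the values were seen. Members, lists and alternatives were chosen with earlier results of these data known. The number of replicates limits the precision.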

Additional observations from a re-analysis of the deposited data

How the results depend on the processing

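The number of members called at T1 was 4, and 3 to 6 under the other normalizations, filters, fits and reads tried (against 7.44 to 21.3% of all genes), but 12 with DESeq2's Wald test and between 0 and 9 with 1 library left out. It was 0 without input replicate 1, 2 or 3, where 1.99 to 2.81% of all genes were called, and the cause was not tested. At T2 over the input, DESeq2 called 1 member and no left-out library changed the count of 0. At T2 over T1, DESeq2 called 4, a filter of 1 count called 1, and leaving out 1 library gave 0 to 3 (3 without T1 replicate 1, against 9.43% of all genes, and 2 without T1 replicate 2, against 2.46%). The median log2 fold change of the members at T1 lay between -0.53 and -0.072 with 1 library left out, the smaller change without T1 replicate 3. At T2 over T1 it was 0.43, against 0.30 with DESeq2, 0.22 with median-of-ratios size factors, 0.61 with library size only, 0.30 with genes of at least 1 CPM, 0.29 with only the compared conditions, 0.29 with members also taken by human symbol, and between 0.13 and 0.48 with 1 library left out. Scaling by library size alone moved the median of all genes from -0.09 to -0.25 at T1 and from 0.09 to 0.28 at T2 over T1. Larger moves came with the replicate number as a block, to -0.72 at T1 and 0.45 at T2 over T1. With that block the members had a median of -0.54 at T1, above that of all genes. A filter of 1 count gave -0.51 over all genes and -0.44 over the members at T1.

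The log2 fold changes of single members were followed for 35 pairs of a member and a comparison, those named by rule for printed levels. Of their values under an alternative, 534 kept their direction and side of the threshold, 23 passed it and 20 lost it. A further 16 changed sign, none of them called. Members not named by rule for a comparison, such as kif21a.L at T1, are outside this tally. Cyclin B2 mRNA at T1 was 0.052 with DESeq2, 0.052 with median-of-ratios size factors, 0.00025 with only the compared conditions, 0.0081 with recovered reads, and between -0.53 and 0.23 with 1 library left out. With library size only, cdk17.L was -0.13 at T1 and cenpe.L 0.13 at T2 over T1. With 1 library left out, the ranges were -0.53 and 0.042 for ccna1.S and -0.043 and 0.19 for cdk17.L at T1, -0.31 and 0.099 for ccna2.L and -0.65 and 1.51 for smc1b.L at T2, and -0.45 and 0.25 for cenpe.L at T2 over T1.

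With the replicate number as a block, 4 members were called at T1 (1 higher and 3 lower), with cdc42se2.L in place of ccnt1.S, and 1499 of all genes against 2320 without it, while smc1b.L at T2 over the input was -0.11. The deviations of libraries with the same number correlated at -0.02 to 0.32 over 9 pairs, and 3 of the 9 were over 0.1. Those of libraries with different numbers correlated at -0.33 to 0.16. Deviations were taken from the mean of each condition, which by itself lowers the correlations between different numbers where same-numbered libraries are alike. The study's methods count fewer biologically independent samples than libraries, so an input and its filtrates may share an extract. That the replicate number marks the extract is not given in the sources used here, and the fit without the block was kept. If the numbers do mark extracts, that fit leaves the pairing out. The calls of ccnt1.S and cdc42se2.L at T1 depend on this choice. At its mean input level each member would have at least 20.2 reads in each T1 library, while ccng1.L and smc1b.L, with 1 and 2 reads at T1, have wide counting intervals.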

Other observations

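In the study's sheet, 5 more mRNAs have human symbols that begin with the same letters, while their frog symbols do not. LOC398162, given there as CCNB2 (a B-type cyclin), had 515, 809 and 452 CPM at T1, 311, 436 and 191 CPM at T2, and 261, 305 and 339.6 CPM in the input. Each T1 library lay above each input library (log2 fold change 0.97, SE 0.33, adjusted p = 0.0727, by edgeR). LOC108710741, given as CDKN1B (an inhibitor of cyclin-dependent kinases), had 30.0, 25.99 and 0.483 CPM at T1, 46.8, 13.5 and 52.3 CPM at T2, and 66.1, 41.9 and 54.7 CPM in the input, with T1 replicate 3 near 0 as for 11 members. LOC100462920, given as CDCA2, had 93.7, 142 and 90.3 CPM at T1, 120.2, 92.8 and 78.5 CPM at T2, and 72.1, 81.3 and 93.4 CPM in the input. LOC108711222, given as CDC123, had 13.1, 8.43 and 0 CPM at T1 and 4.63, 3.52 and 2.55 CPM in the input. LOC108709645, given as NUPR2, which is not a nucleoporin, had 0 reads in each T1 library and 2.96, 1.11 and 0.543 CPM in the input. None of the 5 was called by edgeR in any comparison, and by unadjusted p under 0.05 the number was 2 at T1 over the input.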
